A study of Mus musculus with 16 samples.

Results

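The effect of sham surgery on the mouse left ventricle was read from RNA sequencing of 6 sham-operated and 4 unoperated (baseline) hearts, 10 of the 16 libraries of the study. These libraries were chosen by the treatment in their labels, and the other 6 came from hearts with myocardial infarction (MI). Of the 55492 genes in the deposited table, 20180 had a mean normalized read count of at least 10 over the 10 libraries and were tested. All mice were C57BL/6 males aged 8 to 12 weeks. PKM2fl/fl mice, the control genotype, carry a floxed exon 10 of Pkm, the exon that makes the M2 isoform of the glycolytic enzyme pyruvate kinase. PKM2-/- mice have lost that exon in every cell, because the floxed allele was excised with CMV-Cre in earlier generations and the Cre was then bred out. Each genotype had 2 baseline hearts, from mice that received no treatment, and 3 sham hearts. Sham mice underwent the operation used for MI without tying the left anterior descending coronary artery, and their hearts were taken 3 days later. Each library came from its own mouse. The hour at which each heart was taken is not given in the sources used here. Baseline mice had no operation of any kind, so anesthesia, opening of the chest and recovery cannot be told apart in these data.

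An operation is known to set off an acute-phase response, in which liver and other tissues secrete defence proteins under the control of cytokines such as interleukin-6. Neutrophils leave the blood first and monocytes follow, while resident macrophages already lie between the muscle cells of the healthy heart. Adrenal glucocorticoids, interferons and the circadian clock each drive well-known sets of target genes that can be read in the same RNA.

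The gene count of Pkm includes both isoforms (chr9:59656576-59679372, RefSeq on GRCm38) and is therefore no direct check of the deletion or the labels. Its normalized count was 9602 and 9108 in the PKM2fl/fl baseline hearts, 7779, 9444 and 8764 in PKM2fl/fl sham, 11981 and 12984 in PKM2-/- baseline, and 11710, 14242 and 13199 in PKM2-/- sham. Every PKM2-/- heart thus lay above every PKM2fl/fl heart. The log2 fold change of Pkm between sham and baseline was -0.03 ± 0.08 (SE, adjusted p = 0.889).

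The 10 libraries held between 20623769 and 71855101 reads. Markers of ventricular cardiomyocytes were abundant in each, and none of the 10 on that list passed the test (median log2 fold change -0.00). Reads on rRNA-related loci made up 31.7% ± 13.5 of baseline libraries (SD, n = 4) and 29.5% ± 10.4 of sham libraries (SD, n = 6), a difference of -2.21 percentage points (exact permutation test within genotypes, two-sided, p = 0.63, smallest possible 0.01). Within genotypes that difference was 2.73 points in PKM2fl/fl and -7.14 points in PKM2-/-. Most of these reads lay on the 2 mitochondrial rRNA genes, and without those the difference was 0.52 points (exact permutation p = 0.92), with 0.65 in PKM2fl/fl and 0.38 in PKM2-/-. The batches of extraction and sequencing are not given in the sources used here. PKM2fl/fl sham 3 stood apart from the other 5 sham hearts. On the first principal component of the 10 libraries, which held 28.1% of the variance, it scored -5.94 against 17.2 to 43.6 for the other sham hearts and -42.3 to -29.3 for baseline. It is kept in every value below unless stated.

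Of the 20180 genes tested, 323 (1.6%) were at least 2-fold higher in sham hearts at an adjusted p under 0.05, and 51 (0.253%) were at least 2-fold lower. These are the genes named as called. At an adjusted p under 0.05 with no fold threshold, 776 genes (3.85%) rose and 546 (2.71%) fell. These shares over all genes are the ones to set beside every list count below. The filter took the mean over all 10 libraries, so a gene near 0 in baseline was tested only where sham hearts were high. This can raise the share that rose in lists of genes low in baseline, and by how much was not worked out. Genes and gene lists were also chosen with earlier results of these data known, so list shares are no separate evidence. All 6 sham hearts lay above all 4 baseline hearts for 844 genes (4.18%) and below them for 704 (3.49%). The split of higher and lower genes depended on the scaling: when libraries were scaled to total reads, 600 genes rose and 109 fell. Without PKM2fl/fl sham 3, 981 genes rose and 700 fell. By list, the number that rose without it went from 16 to 18 for acute-phase genes, 10 to 11 for immediate early genes, 16 to 17 for cell division, 9 to 12 for matrix proteases, 6 to 7 for heat shock proteins, and 9 to 7 for interferon genes, and 7 clock genes that fell became 8. Larger moves are given with the lists. Without PKM2-/- baseline 2, 320 rose and 170 fell, and the called genes dropped from 374 to 196. Fold changes come from log2 of the normalized count plus 1, so those of low genes are understated. In whole tissue, fewer cells of a type and less RNA per cell cannot be told apart.

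**Figure D1:**
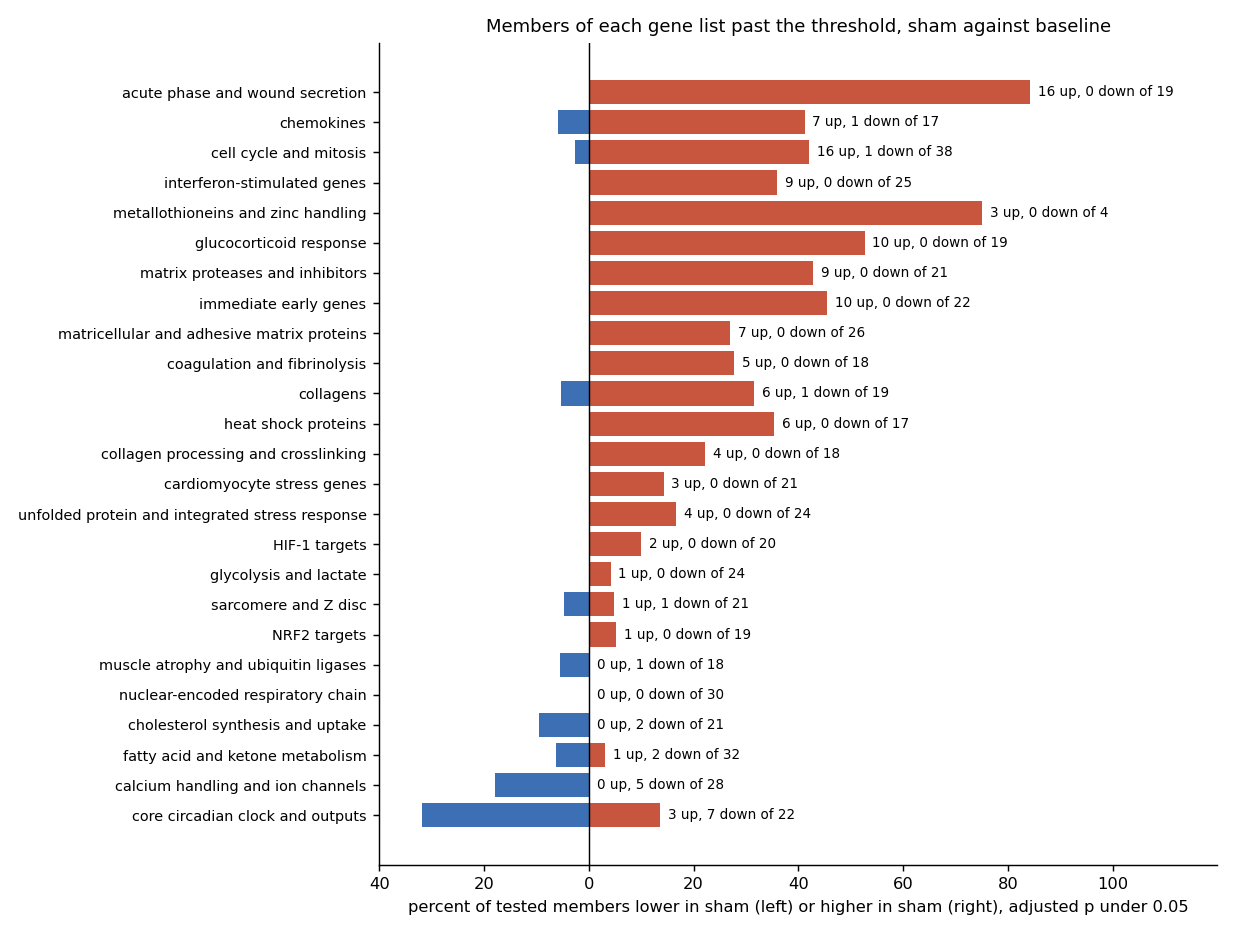
Percent of the tested members of each gene list that were higher (right, red) or lower (left, blue) in the 6 sham hearts than in the 4 baseline hearts at an adjusted p under 0.05, with counts beside the bars. The acute-phase list had 16 of 19 members higher, the clock list 7 of 22 lower, and the respiratory chain list 0 of 30 in either direction. The lists were chosen with earlier results of these data known.

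Genes of neutrophils, the short-lived phagocytes that arrive first in injured tissue, showed some of the largest differences. Of 18 neutrophil genes listed, 8 had a mean under 10 and were not tested, and 8 of the other 10 rose, against 3.85% of all genes tested. Mmp8 and Cxcr2, low in baseline, passed that filter only through their sham counts, so the filter raises the share of 8 of 10. S100a8 and S100a9 encode the subunits of calprotectin, a calcium-binding protein that fills the neutrophil cytosol. S100a8 (chr3:90669071-90670034, as RefSeq places it on GRCm38) stood at 6.28 and 27.9 in the PKM2fl/fl baseline hearts and 18.6 and 22 in the PKM2-/- baseline hearts, and its lowest, median and highest sham counts were 36.3, 254 and 327. The groups did not overlap, but PKM2fl/fl sham 3 lay just above the highest baseline heart while the other 5 were several times higher. The log2 fold change was 3.42 ± 0.56 (adjusted p = 0.00612), or 10.7-fold. S100a9 rose by 3.23 ± 0.49 on the log2 scale (adjusted p = 0.00457). Mmp8, the neutrophil collagenase, rose from 1.57 to 6.99 in baseline to a sham median of 65.9, a log2 fold change of 3.48 ± 0.54. Cxcr2, the receptor through which neutrophils follow CXC chemokines, rose by 2.84 ± 0.45 on the log2 scale, and only PKM2fl/fl sham 3, at 15.7, fell within the baseline range. The summed count of the neutrophil list was 256 to 436 in baseline, 483 in PKM2fl/fl sham 3 and 1815 to 2060 in the other 5 sham hearts. Leaving out any 1 library kept 7 to 9 members past the threshold.

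Genes of recruited monocytes and the macrophages they become rose as well. Of 20 listed, 19 were tested and 15 rose, with a median log2 fold change of 1.29 against 0.01 over all genes tested. The count was 9 without PKM2fl/fl baseline 2, 9 without PKM2-/- baseline 1 and 8 without PKM2-/- baseline 2, and 17 without PKM2fl/fl sham 3. Plac8, abundant in inflammatory monocytes, stood between 9.29 and 14.9 in baseline and between 44.6 and 119 in sham, a log2 fold change of 2.25 ± 0.25 (adjusted p = 0.00129). Ccr2, the chemokine receptor by which monocytes leave the bone marrow, ranged from 51.3 to 87.1 in baseline and from 105 to 419 in sham (1.39 ± 0.30, adjusted p = 0.02). Neither gene overlapped between the groups. Ly6c2 stood between 2.16 and 40.2 in sham hearts and did not pass the test (1.65 ± 0.66, adjusted p = 0.169). Spp1, which encodes the adhesive cytokine osteopontin made by wound macrophages, had a sham median of 136 against 7.96 to 66 in baseline (2.60 ± 0.63, adjusted p = 0.0306), and PKM2fl/fl sham 3, at 41.2, lay within the baseline range.

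The smallest adjusted p-values of the whole comparison belonged to Ms4a6b and Ms4a6d, membrane proteins of the myeloid MS4A family. Ms4a6b (chr19:11518559-11530403) was 134 and 135 in PKM2fl/fl baseline, 171 and 159 in PKM2-/- baseline, and 421, 463 and 649 at the sham minimum, median and maximum. Every sham heart, PKM2fl/fl sham 3 included, was more than 2-fold above every baseline heart, and the log2 fold change was 1.74 ± 0.10 (adjusted p = 9.86e-06). Ms4a6d rose by 2.23 ± 0.14 on the log2 scale (adjusted p = 2.22e-05). Ms4a6c (1.93 ± 0.16) and BE692007 (1.88 ± 0.15) had nearly the same count in every library, so the 2 gene models may share reads and are not independent. Slfn4 (chr11:83175172-83190216), a Schlafen gene of myeloid cells, stood between 3.98 and 11.7 in baseline and between 37.3 and 143 in sham, a log2 fold change of 3.51 ± 0.26 (adjusted p = 8.14e-05). Ifi204 and Ifi205, interferon-inducible sensors of cytosolic DNA that myeloid cells express, rose by 1.73 ± 0.14 and 1.56 ± 0.19. Pnp, the purine-salvage enzyme purine nucleoside phosphorylase, rose 2.06-fold with sham counts of 352 to 453 against 158 to 216. The gene model listed as Olfr1033, an olfactory receptor gene, ranged from 690 to 936 in baseline and from 1326 to 2745 in sham, and reads of overlapping transcripts were not separated for it.

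Resident macrophage genes changed less, and unevenly. Of the 16 listed and tested, 11 rose and 0 fell, against 3.85% and 2.71% of all genes, with a median log2 fold change of 0.64. Lyve1, a hyaluronan receptor of perivascular macrophages and of lymphatic vessels, was 303 to 485 in baseline and 579 to 1285 in sham (1.09 ± 0.12, adjusted p = 0.00138). Cd163, the haptoglobin-hemoglobin scavenger receptor, rose by 0.88 ± 0.10 and the complement genes C1qb and C1qc by 1.05 ± 0.15 each. All of these separated the groups completely. Timd4, which marks self-renewing resident macrophages, gave -0.13 ± 0.22 (adjusted p = 0.8), and Cx3cr1 gave 0.13 ± 0.08 (adjusted p = 0.364). The number that rose was 6 without PKM2fl/fl baseline 2, PKM2fl/fl sham 2, PKM2-/- baseline 2 or PKM2-/- sham 1, and 7 without PKM2-/- sham 3. Lyve1 was the only one of 6 lymphatic endothelial genes tested that rose, and Prox1, the transcription factor that defines lymphatic vessels, fell by 0.60 on the log2 scale (adjusted p = 0.00193), a call lost when libraries were scaled to total reads.

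**Figure D2:**
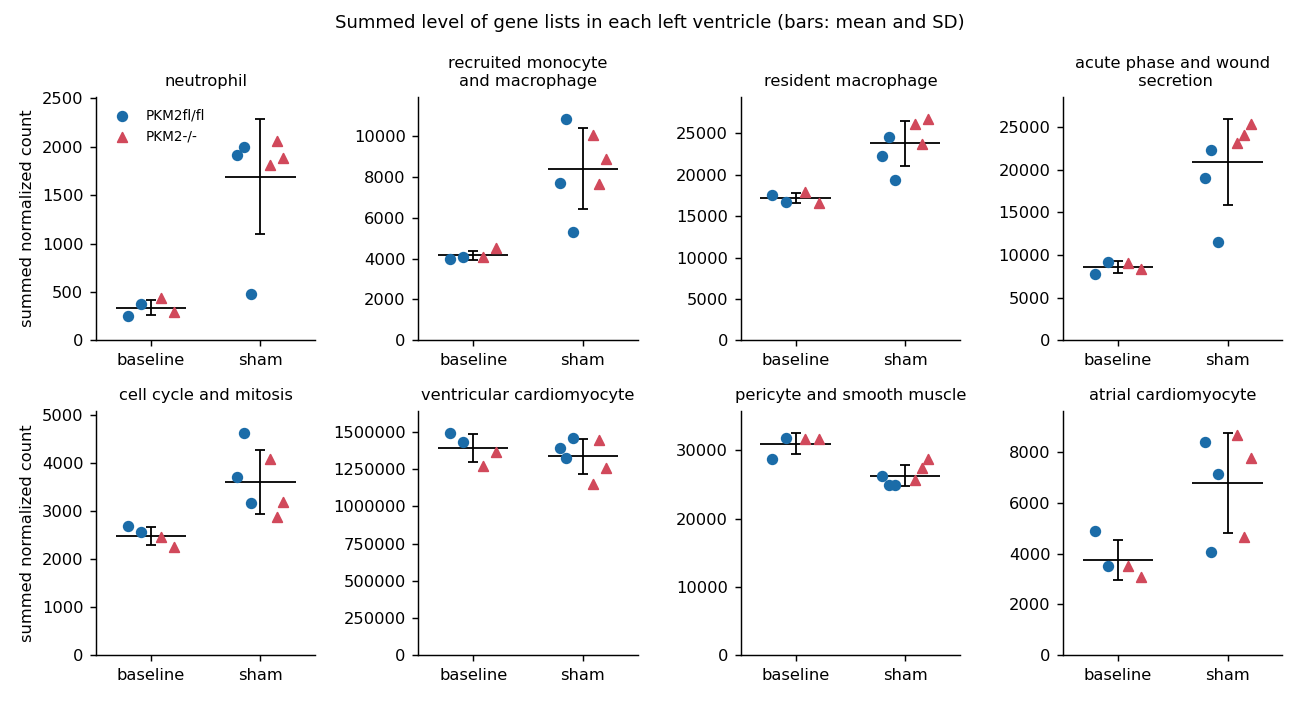
Summed normalized count of 8 gene lists in each of the 4 baseline and 6 sham hearts (circles PKM2fl/fl, triangles PKM2-/-, lines mean and SD). Neutrophil sums were 256 to 436 in baseline and 483 to 2060 in sham, and the low sham circle is PKM2fl/fl sham 3.

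Acute-phase and wound-secretion genes formed the list with the largest share of members higher. Of 20 listed, 19 were tested, 16 rose and 0 fell, against 3.85% and 2.71% of all genes tested. The list was chosen with earlier results of these data known, so its share is no separate evidence. Every tested member was higher in sham than in baseline in PKM2fl/fl, as were 52.9% of all genes tested. In PKM2-/- 18 of 19 were higher, against 51.4% of all genes tested. Saa3 (chr7:46711998-46719615), the serum amyloid A made outside the liver, was 0.78 and 1.99 in PKM2fl/fl baseline, 4.66 and 3.67 in PKM2-/- baseline, and 12.8, 68.3 and 397 at the sham minimum, median and maximum. The groups did not overlap, PKM2fl/fl sham 2 being the highest and PKM2fl/fl sham 3 the lowest sham heart, and the log2 fold change was 4.43 ± 0.72 (adjusted p = 0.00612). Hp, which encodes the hemoglobin scavenger haptoglobin, stood at 7.96 to 16.5 in baseline and 42.2 to 337 in sham (3.39 ± 0.45, adjusted p = 0.00241). Saa3 and Hp are also made by activated macrophages and neutrophils.

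Complement C3, the central protein of the complement cascade, was abundant and rose from 1920 to 2804 in baseline to 3800 to 9207 in sham (1.65 ± 0.20, adjusted p = 0.00157). C4b, the mouse complement C4, is outside the list and rose by 1.86 ± 0.17 (adjusted p = 0.000255). Serpina3n, a secreted protease inhibitor, rose by 1.91 ± 0.29 and Lcn2, the iron-withholding lipocalin, by 1.91 ± 0.37, both with PKM2fl/fl sham 3 inside the baseline range. Cebpd, the transcription factor that drives acute-phase promoters, stood within 254 to 283 in the 4 baseline hearts and reached 437 to 1243 in sham (1.55 ± 0.20, adjusted p = 0.00204). Socs3, the feedback inhibitor of interleukin-6 signalling, had a sham median of 295 against 72.2 to 95.5 in baseline (1.67 ± 0.32, adjusted p = 0.012). The receptors Osmr (0.83 ± 0.13), Il4ra (1.24 ± 0.21), Il6ra (0.82 ± 0.16) and Il1r1 (0.78 ± 0.14) rose and separated the groups. Itih4 and Steap4 did not pass the test (0.02 ± 0.21 and 0.36 ± 0.15). The summed list was 7724 to 9187 in baseline, 11511 in PKM2fl/fl sham 3 and 19000 to 25331 in the others.

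Metallothioneins are small zinc- and copper-binding proteins whose genes respond to metals, cytokines and glucocorticoids. Mt2 was 115, 271, 302 and 273 in the baseline hearts and 358, 792 and 995 at the sham minimum, median and maximum (1.52 ± 0.33, adjusted p = 0.0182). Mt1 rose by 0.93 ± 0.18, and the zinc importer gene Slc39a14 by 0.51 ± 0.12. All 3 separated the groups, and only 1 of the 4 tested list members still passed without PKM2fl/fl baseline 1 or PKM2-/- baseline 2. The fourth, the zinc exporter gene Slc30a2, gave -0.57 ± 0.40 (adjusted p = 0.456). The Mt2 promoter holds the core of a metal response element (TGCGCNC, searched on both strands) 128 bases before its start. It is shown because that element is the known route of metal control. The RefSeq window on GRCm38, chr8:94172475-94172617 on the plus strand, runs to the base before the annotated start with the match in capitals:
Mt2: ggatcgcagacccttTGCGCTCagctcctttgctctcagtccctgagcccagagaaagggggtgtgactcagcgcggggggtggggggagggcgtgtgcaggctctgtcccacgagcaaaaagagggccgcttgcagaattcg
These letters occur in 22.8% of the 12661 tested genes with a promoter window in 25 of the 238 genes called higher with one, and in 2 of 3 metallothionein-list genes with one. The Mt1 window, chr8:94178839-94179088, does not hold them. It runs past the start of the gene at 94178883 and so covers little of the sequence before it. Whether the sequence further before that start holds these letters was not tested.

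Part of the genes induced by glucocorticoids rose in sham hearts too. The summed list was 27646 to 39684 in baseline, 35762 in PKM2fl/fl sham 3, 70734 in PKM2-/- sham 2 and 39866 to 51068 in the other sham hearts. Of 20 listed, 19 were tested, 10 rose and 0 fell, and without PKM2-/- baseline 1 or PKM2-/- baseline 2 the count was 6 or 4. Fkbp5, which encodes an immunophilin that restrains the glucocorticoid receptor, was 632, 1840, 1012 and 1264 in baseline and had a sham minimum, median and maximum of 1855, 3494 and 8822 (1.68 ± 0.36, adjusted p = 0.0182). The lowest sham heart thus stood only just above the highest baseline heart. Tsc22d3, the glucocorticoid-induced leucine zipper, rose by 0.76 ± 0.14 (adjusted p = 0.00932), and Ddit4, an inhibitor of mTORC1, by 1.70 ± 0.27 (adjusted p = 0.00502). Zbtb16 (0.67 ± 0.21), Per1 (0.17 ± 0.15) and Pdk4 (0.00 ± 0.40) did not pass the test. Pdk4, which keeps pyruvate out of the citric acid cycle, ranged from 3073 to 9968 in baseline and from 3383 to 13877 in sham. Lcn2, Mt2 and Lox stand in this list and in others. Glucocorticoids follow a daily rhythm, and with the hour of harvest not given, surgery and hour cannot be told apart for these genes.

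Genes induced by interferons were higher in sham hearts to an uneven degree. All 25 listed genes were tested and 9 rose, with a median log2 fold change of 0.87. All 25 had a higher fitted level in sham in PKM2fl/fl, as did 52.9% of all genes tested, and all 25 did in PKM2-/-, as did 51.4% of all genes tested. The count that rose was 3 without PKM2fl/fl baseline 2, PKM2-/- baseline 1 or PKM2-/- baseline 2, and 5 without PKM2fl/fl sham 1 or PKM2-/- sham 1. Oas3, an activator of the antiviral nuclease RNase L that is outside the list, was 11, 7.96, 9.32 and 11 in baseline and 47.2, 86.2 and 196 at the sham minimum, median and maximum (3.10 ± 0.29, adjusted p = 0.000382). Isg15, a ubiquitin-like modifier, was 53.4, 47.1, 30.3 and 18.3 in baseline and 58.5, 88.6 and 164 in sham (1.41 ± 0.35, adjusted p = 0.0315). For both genes the groups did not overlap, PKM2fl/fl sham 2 was the lowest sham heart and PKM2-/- sham 1 the highest.

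Ifi27l2a (1.47 ± 0.22), Zbp1 (2.47 ± 0.48), Mx1 (1.30 ± 0.29), Oas2 (0.95 ± 0.17) and Bst2 (1.08 ± 0.26) also rose and separated the groups. Ifit1, Oas1a and Irf7 rose with overlap. Gbp3 (1.06 ± 0.45) and Iigp1 (0.58 ± 0.35) did not pass. The order of the sham hearts was not that of the neutrophil genes. The summed interferon list was 23238 in PKM2-/- sham 1, 20135 in PKM2fl/fl sham 3 and 8470 to 11655 in the other 4 sham hearts, against 6480 to 11126 in baseline.

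Many promoters of such genes hold tandem GAAA repeats read by the interferon-activated factors. A pair of GAAA with any 2 bases between them, a motif chosen after the values were seen and searched on both strands in the 250 bases before each start, was found in 10 of the 16 interferon genes with a window, in 3.46% of 27025 promoters, in 3.24% of the 12661 tested genes with a window and in 11.3% of the 238 genes called higher with a window. Promoters of genes that rose are shown with the matches in capitals, from RefSeq on GRCm38, each read in the direction of its gene. The windows of Isg15 and Ifit1 end at the base before the start of the gene. That of Oas3 runs past the start of the gene at 120777684, so its last bases lie within the gene, while its match lies before that start. They lie at chr4:156200819-156200911 (minus strand, Isg15), chr5:120777660-120777749 (minus, Oas3), chr19:34640770-34640888 (plus, Ifit1), chr8:71537473-71537617 (minus, Bst2) and chr5:120907526-120907560 (minus, Oas1a).
Isg15: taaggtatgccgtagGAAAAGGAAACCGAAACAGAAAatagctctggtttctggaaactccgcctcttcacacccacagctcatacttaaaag
Oas3: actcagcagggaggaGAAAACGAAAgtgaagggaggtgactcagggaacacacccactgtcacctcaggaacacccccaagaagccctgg
Ifit1: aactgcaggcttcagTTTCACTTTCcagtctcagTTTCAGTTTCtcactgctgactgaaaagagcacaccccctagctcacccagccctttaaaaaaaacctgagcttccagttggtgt
Bst2: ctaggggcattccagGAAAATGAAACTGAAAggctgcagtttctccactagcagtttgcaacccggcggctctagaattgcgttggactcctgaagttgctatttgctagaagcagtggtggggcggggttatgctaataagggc
Oas1a: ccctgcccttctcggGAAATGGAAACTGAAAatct
In Isg15 3 matches overlap, in Bst2 and Oas1a 2 overlap, Ifit1 has 2 apart and Oas3 has 1. The windows of Slfn4, Irf7 and Irf9 do not hold this pair. The Slfn4 window runs a little past the start of the gene at 83175172.

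Chemokine genes that rose included those for both neutrophil and monocyte attraction. Of 24 listed, 17 were tested, 7 rose and 1 fell, against 3.85% and 2.71% of all genes. Without PKM2-/- baseline 2, 4 rose. Cxcl5, a ligand of Cxcr2, was 2.65 to 4.71 in baseline and 17.6 to 124 in sham (3.57 ± 0.45, adjusted p = 0.00204). Ccl8, a monocyte attractant made by macrophages, was 7.33 to 20.4 in baseline and 86.8 to 283 in sham (3.22 ± 0.34, adjusted p = 0.000913). Ccl9 (1.61 ± 0.19), Ccl6 (1.57 ± 0.20) and Cxcl1 (1.86 ± 0.40) rose, and all 5 separated the groups. Ccl2, the main ligand of Ccr2, ranged from 22 to 42.5 in baseline and from 28.7 to 205 in sham and did not pass (0.98 ± 0.46, adjusted p = 0.239).

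Cxcl12, the homeostatic chemokine of stromal and endothelial cells that holds leukocytes in place, moved the other way. It was 4764, 5197, 5380 and 4743 in baseline and 3183, 3326 and 3533 at the sham minimum, median and maximum. The 6 sham hearts lay close together, below every baseline heart, and the log2 fold change was -0.59 ± 0.06 (adjusted p = 0.00083). When libraries were scaled to total reads, Cxcl12 did not pass the test and 0 chemokine genes fell.

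**Figure D3:**
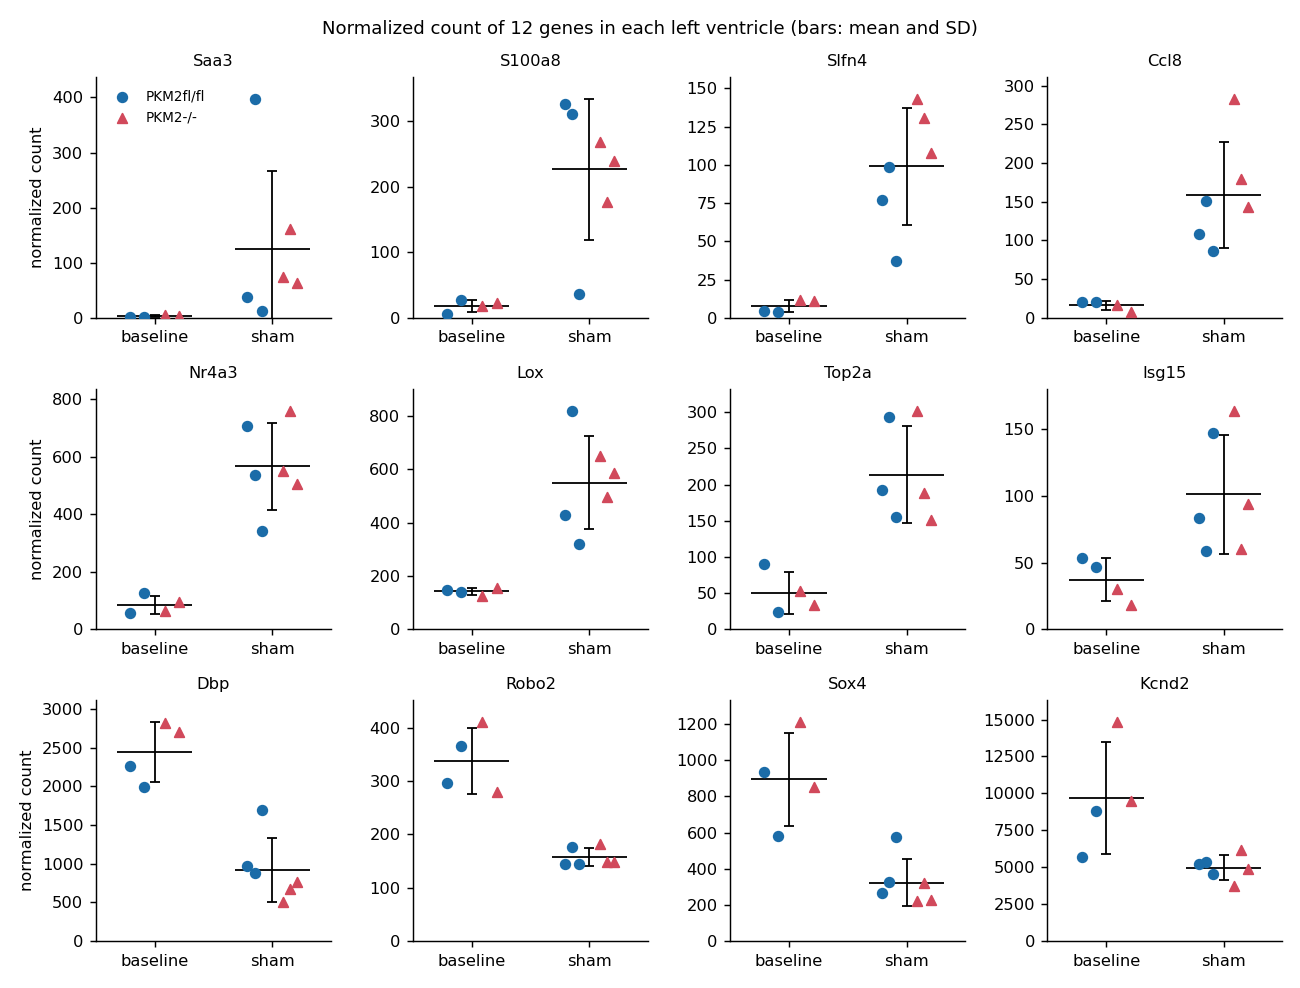
Normalized count of 12 genes in each of the 4 baseline and 6 sham hearts (circles PKM2fl/fl, triangles PKM2-/-, lines mean and SD). Saa3 reached 397 in PKM2fl/fl sham 2 and 12.8 in PKM2fl/fl sham 3, whereas Robo2 lay at 144 to 182 in all 6 sham hearts.

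Immediate early genes, which cells switch on within minutes of a stimulus and many of which encode transcription factors, were partly higher 3 days after surgery. Of 24 listed, 22 were tested, 10 rose and 0 fell, with 6 without PKM2fl/fl sham 1 or PKM2-/- sham 1 and 5 without PKM2-/- baseline 1 or PKM2-/- baseline 2. Nr4a3 (chr4:48045078-48086447), an orphan nuclear receptor, was 56.5, 126, 65.3 and 95.3 in baseline and 341, 543 and 761 at the sham minimum, median and maximum (2.73 ± 0.25, adjusted p = 0.000255). No sham heart came near the baseline range. Atf3, a stress-induced repressor, rose by 2.05 ± 0.33, Klf2 by 0.67 ± 0.10 and Zfp36, which destabilizes cytokine mRNAs, by 0.72 ± 0.13. Fos (1.68 ± 0.50, adjusted p = 0.0661) and Fosb (1.89 ± 0.70, adjusted p = 0.139) did not pass. Fos had log2 fold changes of 0.37 in PKM2fl/fl and 2.99 in PKM2-/-, and the difference between genotypes did not pass for any gene.

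Inducible heat shock genes stood higher too. Of 18 listed, 17 were tested and 6 rose, but 0 passed without PKM2-/- baseline 1 or PKM2-/- baseline 2 and 3 passed without PKM2fl/fl baseline 2. Hspa1a, which encodes the inducible chaperone HSP70, was 14 to 22 in baseline and 25.5 to 178 in sham (2.11 ± 0.42, adjusted p = 0.0136). Hsp90aa1 stood within 1672 to 1734 in all 4 baseline hearts and at 1783 to 3507 in sham (0.65 ± 0.15, adjusted p = 0.022). Of 24 genes of the unfolded protein and integrated stress response 4 rose, against 3.85% of all genes. They were Asns (0.77 ± 0.15), Atf4 (0.44 ± 0.09), Edem1 (0.53 ± 0.12) and Nupr1 (0.83 ± 0.21). The count was 2 without PKM2-/- baseline 1 and 1 without PKM2-/- baseline 2. Hspa5, the chaperone BiP of the endoplasmic reticulum, gave 0.01 ± 0.11 (adjusted p = 0.962).

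Genes of cell division rose from a low baseline. Of 40 listed, 38 were tested, 16 rose and 1 fell, against 3.85% and 2.71% of all genes. The median log2 fold change was 0.91. Top2a, the DNA topoisomerase of dividing cells, was 90.3, 23.9, 53.6 and 33 in baseline and 151, 190 and 302 at the sham minimum, median and maximum (2.19 ± 0.33, adjusted p = 0.00457). Mki67, the proliferation marker, rose by 1.96 ± 0.33, Ccnb1, the mitotic cyclin B1, by 2.07 ± 0.35 and Hmmr, a spindle protein, by 2.94 ± 0.51. The groups did not overlap for any of the 4. Cenpf, a kinetochore protein, fell by 0.96 on the log2 scale (adjusted p = 0.0491) with overlap. Genes that load the DNA replication machinery mostly stayed below the threshold, among them Mcm2 (0.18 ± 0.13), Mcm6 (0.37 ± 0.15) and Pcna (0.15 ± 0.10). The count that rose was 8 without PKM2fl/fl baseline 2, PKM2fl/fl sham 1, PKM2fl/fl sham 2 or PKM2-/- sham 1, 9 without PKM2-/- baseline 1 and 7 without PKM2-/- baseline 2. Whole tissue does not show which cells carried these transcripts.

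The genes of the main fibrillar collagens rose. Of the 19 collagens tested, 6 rose (Col1a1, Col1a2, Col3a1, Col5a2, Col11a1 and Col12a1) and 1 fell, against 3.85% and 2.71% of all genes. Col1a1, the main collagen of scar, was 2971, 1972, 2090 and 2380 in baseline and 4031, 5132 and 9610 at the sham minimum, median and maximum (1.36 ± 0.24, adjusted p = 0.00855). Col3a1 rose by 1.26 ± 0.23 and Col1a2 by 1.02 ± 0.21, and for these 3 genes the groups did not overlap. Col4a1 and Col4a2, of the basement membrane, gave 0.09 ± 0.15 (adjusted p = 0.792) and -0.03 ± 0.15 (adjusted p = 0.929). Col8a1, a short-chain collagen of vessels and activated fibroblasts, was 981 to 1255 in baseline and 584 to 879 in sham (-0.59 ± 0.12, adjusted p = 0.0141) and did not pass when libraries were scaled to total reads or without PKM2-/- baseline 2. The number of collagens that rose was 3 without PKM2fl/fl baseline 2, PKM2fl/fl sham 1, PKM2-/- baseline 2 or PKM2-/- sham 1, and 2 without PKM2-/- baseline 1.

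Among the enzymes that process collagen, Lox, which crosslinks it, rose most clearly. Lox was 149, 141, 125 and 154 in baseline and 320, 540 and 819 at the sham minimum, median and maximum (1.88 ± 0.21, adjusted p = 0.00129), with every sham heart more than 2-fold above every baseline heart. Of the 18 members 4 rose, 7 without PKM2fl/fl sham 3 and 1 without PKM2-/- baseline 1 or PKM2-/- baseline 2. The prolyl hydroxylase genes P4ha1 and P4ha2 rose by 0.61 ± 0.15 and 0.50 ± 0.11 and Pcolce, the procollagen proteinase enhancer, by 0.47 ± 0.10. Mmp3 (1.91 ± 0.31), Mmp14 (0.71 ± 0.13) and Mmp19 (1.09 ± 0.17) were among 9 of 21 matrix protease and inhibitor genes that rose, and Timp1, the inhibitor of metalloproteinases, rose by 2.18 ± 0.42.

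Of 26 matricellular genes tested 7 rose, among them Thbs1 (1.29 ± 0.24), Fn1 (0.84 ± 0.20) and Tgfbi (0.79 ± 0.15), but the count rested on single libraries. It was 12 without PKM2fl/fl sham 3 or PKM2-/- sham 2, 2 without PKM2-/- baseline 1 or PKM2-/- sham 1, 3 without PKM2fl/fl sham 1, and 4 without PKM2fl/fl baseline 2, PKM2fl/fl sham 2, PKM2-/- baseline 2 or PKM2-/- sham 3. Postn, the periostin of activated fibroblasts, was 651 to 830 in baseline and 772 to 1590 in sham and did not pass (0.59 ± 0.21, adjusted p = 0.113). Acta2, the smooth muscle actin of myofibroblasts, gave -0.53 ± 0.28 (adjusted p = 0.303). Of 13 general fibroblast markers 2 rose, Col1a1 and Pcolce, with 5 without PKM2fl/fl baseline 1 or PKM2fl/fl sham 3, 6 without PKM2-/- sham 2 and 1 without PKM2-/- baseline 1 or PKM2-/- baseline 2.

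**Figure D4:**
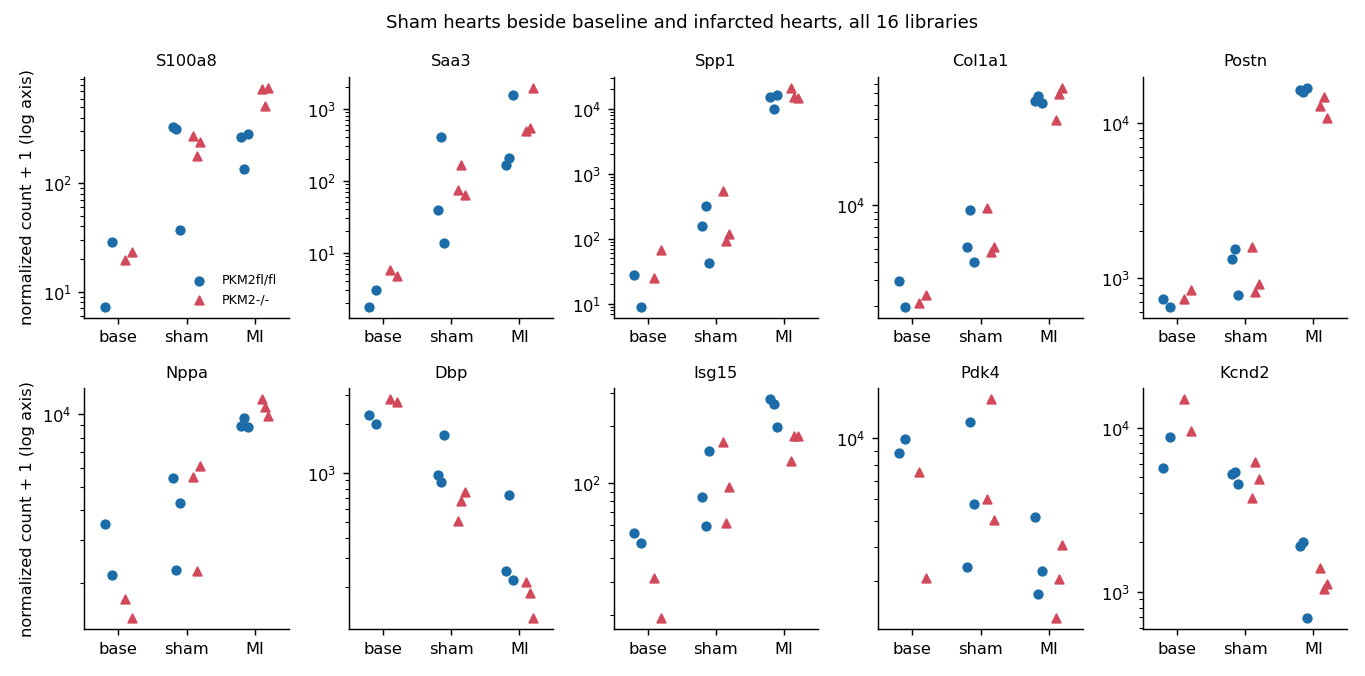
Normalized count plus 1 on a log axis of 10 genes in all 16 libraries, by baseline, sham and MI (circles PKM2fl/fl, triangles PKM2-/-). Sham hearts lay at 4031 to 9610 for Col1a1 and 41.2 to 548 for Spp1, and MI hearts at 39028 to 65148 and 9912 to 20738.

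The MI hearts give a scale for these sham values, though sham and MI were not tested against each other here. Col1a1 reached 39028 to 65148 after MI, Postn 10794 to 16845 and Spp1 9912 to 20738, all far above the 6 sham hearts. S100a8, at 134 to 749 in MI, overlapped with its sham range, as did Ccl8, at 128 to 323. Nr4a3 (177 to 431 in MI), C4b (722 to 861), Lyve1 (329 to 812) and Ifi205 (405 to 645) had lower medians in MI than in sham hearts. For C4b only PKM2fl/fl sham 3, at 846, lay within the MI range, and for Ifi205 no sham heart did.

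Among the lists, the one with the most members that fell was the circadian clock, the transcriptional loop that runs in every tissue with a daily period. Of the 22 clock and output genes tested, 3 rose and 7 fell, against 3.85% and 2.71% of all genes. Since the hour at which hearts were taken is not given, surgery and hour of harvest cannot be told apart for these genes. Dbp (chr7:45705100-45710203), an output factor with a large daily swing, was 2268 and 1985 in PKM2fl/fl baseline, 2814 and 2705 in PKM2-/- baseline, and 508, 822 and 1693 at the sham minimum, median and maximum. All sham hearts lay below all baseline hearts, PKM2fl/fl sham 3 being nearest to them, and the log2 fold change was -1.51 ± 0.24 (adjusted p = 0.00521). Bhlhe41, a repressor of the loop, fell by 0.96 on the log2 scale (SE 0.12, adjusted p = 0.00204) and Nr1d1, the nuclear receptor REV-ERB alpha, by 0.80 (SE 0.16, adjusted p = 0.0122), both without overlap. Per3 and Hlf fell by 0.77 each and Tef by 0.50.

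The genes in antiphase to these moved the other way. Arntl, which encodes the activator BMAL1, was 339, 452, 179 and 238 in baseline and 351, 733 and 930 at the sham minimum, median and maximum (1.22 ± 0.28, adjusted p = 0.0233), with overlap. Nfil3, the repressor that competes with Dbp, rose by 1.35 ± 0.25 (adjusted p = 0.00946). Clock (0.09 ± 0.09), Per1 (0.17 ± 0.15), Per2 (0.14 ± 0.12) and Cry1 (0.24 ± 0.10) did not pass. The number that fell was 3 without PKM2-/- baseline 1, 2 without PKM2-/- baseline 2 and 5 when scaled to total reads, and 1 rose without PKM2-/- baseline 2.

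BMAL1 and CLOCK are known to act through the E-box CACGTG. These letters, searched on both strands, were found before 6 of 18 clock genes with a window, 9.32% of tested genes with a window and 6.86% of all 27025 promoters. Of the 35 genes called lower with a window, 1 held them (2.86%). Of the genes that fell, Tef and Bhlhe41 hold the E-box, and the windows of Dbp, Nr1d1, Per3 and Hlf do not. The Dbp window, chr7:45704997-45705246, runs past the start of the gene at 45705100 and so covers little of the sequence before it. The windows of Tef and Bhlhe41 are given below. They are shown with the E-box in capitals, from chr15:81811261-81811413 (plus strand, Tef) and chr6:145865421-145865588 (minus, Bhlhe41) of GRCm38 as given by RefSeq.
Tef: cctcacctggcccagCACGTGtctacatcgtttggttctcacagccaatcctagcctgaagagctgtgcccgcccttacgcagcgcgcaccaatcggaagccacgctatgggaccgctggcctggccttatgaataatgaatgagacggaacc
Bhlhe41: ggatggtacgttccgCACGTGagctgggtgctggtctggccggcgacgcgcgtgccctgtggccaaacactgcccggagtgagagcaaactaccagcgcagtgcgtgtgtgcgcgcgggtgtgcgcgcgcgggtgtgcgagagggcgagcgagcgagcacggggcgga

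Outside the clock, the genes called lower had mixed roles. Robo2 (chr16:73891976-75447443), an axon-guidance receptor, was 296, 366, 410 and 279 in baseline and 144, 148 and 182 at the sham minimum, median and maximum (-1.09 ± 0.13, adjusted p = 0.00185), and PKM2fl/fl sham 3 did not stand apart. Sox4, a developmental transcription factor, fell from 583 to 1211 in baseline to 223 to 575 in sham (-1.50 ± 0.26, adjusted p = 0.00756). Aplnr, the apelin receptor of endothelium, had a sham median of 237 against 516 to 1120 (-1.50 ± 0.34, adjusted p = 0.0244), with overlap. Cpn2, a carboxypeptidase N subunit, fell by 1.30, Akap5, a protein kinase A anchor, by 1.30, and Nav3, a neuron navigator gene, by 1.13. Slc35f4, Vxn, Pebp4, Tll2, Kbtbd13, Atp8b5 and Cstad were also called lower, with log2 fold changes between -1.33 and -1.11.

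Potassium channel genes made up the members that fell among 28 genes of calcium handling and ion channels. Kcnq1, which carries the slow delayed rectifier current, was 4186 to 4598 in baseline and 3201 to 3703 in sham (-0.34 ± 0.06, adjusted p = 0.00855). Kcnh2, which carries the rapid delayed rectifier, was 1476 to 1790 in baseline and 958 to 1275 in sham (-0.53 ± 0.10, adjusted p = 0.0102). Both separated the groups. Kcnd2 (-0.90 ± 0.20), Kcnd3 (-0.31 ± 0.08) and Kcnj3 (-0.65 ± 0.16) fell with overlap. Atp2a2, the sarcoplasmic calcium pump, and Ryr2, the calcium release channel, did not pass (-0.21 ± 0.15 and 0.01 ± 0.11). When libraries were scaled to total reads 1 of the 28 fell and 1 rose. The number that fell was 2 without PKM2-/- baseline 2 and 3 without PKM2fl/fl baseline 2, PKM2fl/fl sham 1, PKM2-/- baseline 1, PKM2-/- sham 1 or PKM2-/- sham 3.

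Pericyte and smooth muscle genes also fell, to a small degree. Of the 11 tested, 4 fell and 0 rose. Pdgfrb, the pericyte growth factor receptor, was 1713 to 1879 in baseline and 1224 to 1500 in sham (-0.43 ± 0.06, adjusted p = 0.00355), and Cspg4 was 853 to 914 and 467 to 704 (-0.56 ± 0.10, adjusted p = 0.00757). Kcnj8 and Vtn fell by 0.52 each, whereas Rgs5 gave -0.16 ± 0.10 (adjusted p = 0.379). The count was 2 without PKM2fl/fl baseline 1, PKM2fl/fl sham 1, PKM2-/- baseline 2 or PKM2-/- sham 1, and 0 when scaled to total reads.

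Endothelial genes moved in both directions. Vwf, the von Willebrand factor of the clotting system, was 2353 to 3230 in baseline and 3695 to 5786 in sham (0.68 ± 0.12, adjusted p = 0.00852). The water channel gene Aqp1 rose by 0.50 ± 0.07 and Ly6c1 by 0.54 ± 0.07. Cdh5, the adherens junction cadherin, fell by 0.36, Egfl7 by 0.41 and Kdr, the main receptor of VEGF, by 0.39, and none of these 3 passed when scaled to total reads or without PKM2fl/fl baseline 1, and 1 endothelial gene fell without PKM2fl/fl baseline 2, PKM2-/- baseline 2 or PKM2-/- sham 1. Pecam1 gave 0.18 ± 0.07 (adjusted p = 0.161). Of 18 coagulation and fibrinolysis genes 5 rose, among them the transglutaminase gene Tgm2 (0.62 ± 0.10) and the urokinase receptor gene Plaur (1.16 ± 0.29), and leaving out a library left at least 3.

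In the lists of heart muscle and its energy supply 0 to 2 members passed in each direction. That is near the share of all genes tested (3.85% higher and 2.71% lower) and is no result about these lists. Of 21 sarcomere and Z-disc genes, Tcap, which encodes telethonin, fell by 0.58 (adjusted p = 0.0283) and Lmod2 rose by 0.32, while Myh6 (-0.14 ± 0.20) and Myl2 (0.10 ± 0.14) did not pass. Both calls were lost when libraries were scaled to total reads, without PKM2fl/fl baseline 1, PKM2fl/fl sham 1, PKM2fl/fl sham 2, PKM2-/- baseline 1 or PKM2-/- baseline 2. Of 30 nuclear-encoded respiratory chain genes tested 0 passed in either direction, their log2 fold changes lay between -0.07 and 0.36, and leaving out any 1 library brought none past the threshold. In fatty acid and ketone metabolism Cpt1a, the gate of mitochondrial fatty acid import, fell from 1840 to 2287 in baseline to 1200 to 1844 in sham (-0.52 ± 0.11, adjusted p = 0.0151), Ehhadh fell by 0.57 and Ucp2 rose by 0.51 among 32 tested. None of these 3 passed without PKM2-/- baseline 1 or when scaled to total reads. In glycolysis 1 of 24 rose, Slc16a3, the lactate exporter MCT4, from 53.1 to 71 in baseline to 100 to 223 in sham (1.14 ± 0.23, adjusted p = 0.0142), a call lost without PKM2-/- baseline 2.

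Some markers of cardiac stress passed the test. Nppb, the brain natriuretic peptide, was 4123, 4381, 1139 and 2023 in baseline and 1336, 2582 and 3241 at the sham minimum, median and maximum (-0.17 ± 0.31, adjusted p = 0.806). Of 21 cardiac stress genes 3 rose, against 3.85% of all genes tested. They were Actn1 (0.46 ± 0.08), Rcan1 (0.43 ± 0.09) and Runx1 (0.61 ± 0.14), all below 2-fold. Without PKM2-/- baseline 1 only Actn1 of these 3 passed. Ky, a gene of muscle maintenance, had a log2 fold change of -1.03 and was the only one of 18 muscle atrophy genes to pass, a call lost without PKM2-/- baseline 1 or PKM2-/- baseline 2. G6pdx, the entry enzyme of the pentose phosphate pathway, rose by 0.61 ± 0.13 as the only one of 19 NRF2 targets, and Ddit4 and P4ha1 were the 2 of 20 HIF-1 targets that rose, with 1 without PKM2fl/fl baseline 2, PKM2fl/fl sham 2, PKM2-/- baseline 1, PKM2-/- baseline 2 or PKM2-/- sham 1. Without PKM2fl/fl sham 3 the NRF2 list had 4 that rose, and without PKM2-/- baseline 2 it had 0. Over all genes tested 3.85% rose and 2.71% fell, so 1 member passing in the atrophy or NRF2 list is no result about that list. Stard4 and Dhcr7 fell among 21 cholesterol genes, and neither passed when scaled to total reads or without PKM2fl/fl baseline 1, PKM2fl/fl sham 2, PKM2-/- baseline 1, PKM2-/- baseline 2 or PKM2-/- sham 3.

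Nppa, the atrial natriuretic peptide, was 1429 to 3491 in baseline and 2246 to 6098 in sham and did not pass (0.94 ± 0.32, adjusted p = 0.107). Markers of atrial muscle moved beside it. Of 9 atrial genes tested 4 rose, Myl7 (2.52 ± 0.66), Myl4 (1.75 ± 0.38), Dkk3 (1.23 ± 0.27) and Mybphl (2.18 ± 0.51), and 0 separated the groups. The number that rose was 0 without PKM2fl/fl baseline 2, 1 without PKM2fl/fl baseline 1 or PKM2-/- baseline 2, and 2 without PKM2fl/fl sham 1 or PKM2-/- sham 1. The summed count of the list was 3068 to 4903 in baseline and 4069 to 8691 in sham. PKM2fl/fl sham 1, PKM2fl/fl sham 3, PKM2-/- sham 1 and PKM2-/- sham 3 were the 4 high sham hearts, so PKM2fl/fl sham 3 was low for neutrophil genes and high for atrial ones. The part of atrial tissue in the Nppa values was not tested. Mesothelial genes had a summed count of 539 to 717 in baseline and 842 to 1440 in sham, with 0 of 10 past the threshold.

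In the 2 genotypes taken apart, the contrast of 3 sham with 2 baseline hearts called 8 genes (0.0396%) in PKM2fl/fl and 511 (2.53%) in PKM2-/-, and all 8 were among the 511. The 2 counts do not show that the genotypes responded differently, since the limma test of the difference called 0 genes (0%), with a smallest adjusted p of 0.109 and 1589 genes at an unadjusted p under 0.05. On the recovered reads edgeR called 0 and DESeq2 called 102, and with total reads as the scale limma called 20. Of the 349 genes called higher in PKM2-/- sham, 334 (95.7%) were higher in PKM2fl/fl sham, and of the 162 called lower, 135 (83.3%) were lower, where 52.9% of all genes tested were higher in PKM2fl/fl sham. Without PKM2fl/fl sham 3 the PKM2fl/fl count was 161. It was 2 without PKM2fl/fl baseline 1 or PKM2fl/fl sham 1, and 3 without PKM2fl/fl baseline 2 or PKM2fl/fl sham 2. The PKM2-/- count was 247 without PKM2-/- baseline 1, 236 without PKM2-/- baseline 2 and 310 without PKM2-/- sham 1. Within PKM2-/- the rRNA-related share of reads was 45.1% and 41.1% in baseline and 29.8%, 30.3% and 47.8% in sham. Without the 2 mitochondrial rRNA genes it was 10.4% and 10.1% in baseline and 7.70%, 5.89% and 18.3% in sham, with no lower mean in sham, and its part in that count was not tested.

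List medians differed between the genotypes in both directions. The median log2 fold change of the acute-phase list was 0.92 in PKM2fl/fl and 1.66 in PKM2-/-, that of the interferon list 0.63 and 1.16, and that of the neutrophil list 2.44 and 3.12. The mesothelial list (1.84 and 0.90), the atrial list (1.70 and 1.09) and the metallothionein list (0.76 and 0.69) went the other way, and the cell division list (0.86 and 0.88) and the resident macrophage list (0.60 and 0.66) were close. For Dbp the values were -0.91 and -2.11, for Arntl 0.50 and 1.95, and for Il4ra 0.70 and 1.79. Other genes were close in both, such as Ms4a6b (1.69 and 1.79), Robo2 (-1.09 and -1.09), Lox (1.73 and 2.04) and Nr4a3 (2.57 and 2.90). The smallest p for a difference between genotypes outside predicted gene models belonged to Adamtsl2, a secreted matrix protein (log2 fold change -0.33 in PKM2fl/fl and 1.95 in PKM2-/-, adjusted p of the difference = 0.109), and Fign, the microtubule-severing enzyme fidgetin (-0.33 and -1.51, adjusted p = 0.131). None of the differences for single genes passed the test, and those between list medians were not tested. PKM2fl/fl sham 3 enters only the PKM2fl/fl values.

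**Figure D5:**
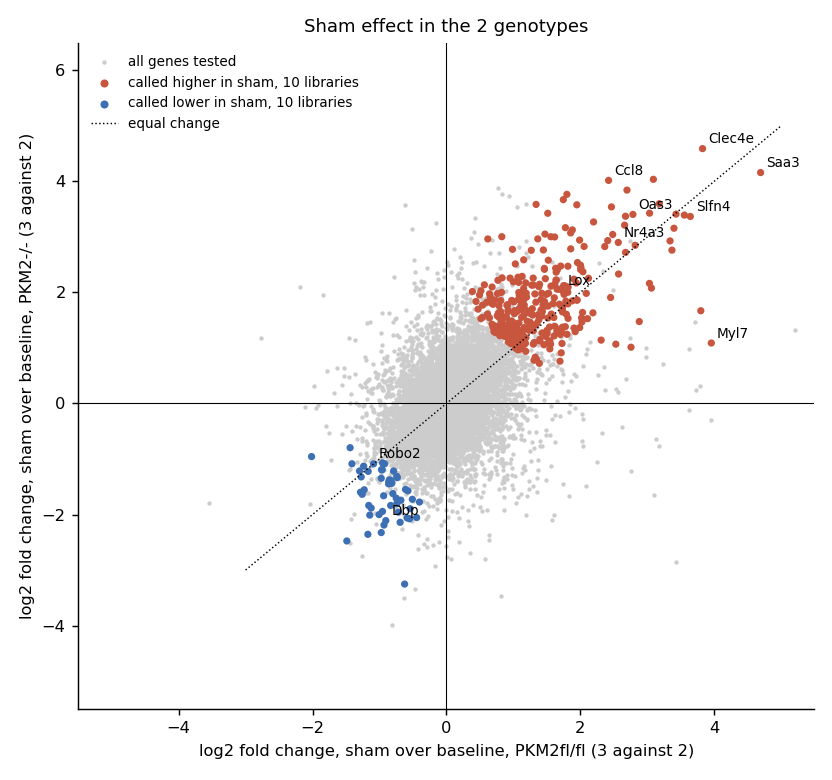
Log2 fold change of sham over baseline in PKM2fl/fl (x axis) and PKM2-/- (y axis), 3 against 2 hearts each, for the 20180 genes tested, with the 323 genes called higher (red) and the 51 called lower (blue) over all 10 libraries. All called genes lie on the same side of 0 in both genotypes, with Saa3 at 4.70 and 4.16 and Dbp at -0.91 and -2.11. The called genes were chosen on these same 10 libraries, so their shared side is no separate evidence.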

How the data were processed

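The authors extracted left ventricular RNA, depleted rRNA, sequenced paired ends, mapped the trimmed reads to the mm10 genome (HISAT2), assigned them to genes (featureCounts) and scaled the libraries (DESeq2). The deposited signal values are these normalized counts of 55492 genes in 16 libraries, without filter or log. Settings for strand and for reads with several matches are not given in the sources used here. Further deposited columns hold the authors' mean over all libraries and their own DESeq2 comparison, as a log2 fold change, its error, a test score and p-values, and were not used.

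Every positive value was a whole read multiple within 0.01 read or 1e-06 of the value, after division by one size factor per library (100% of values), so whole reads were recovered and gave the depths. Counting error is one part of the spread between hearts, and all p-values rest on that spread.

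Values were tested as log2(value + 1) with limma 3.58.1 in R 4.3.3 (trended variance, genotype and surgery as terms, Benjamini-Hochberg adjustment), for genes with a mean of at least 10. A fit with 4 groups gave the contrasts within genotypes and their difference. On recovered reads, edgeR 4.0.16 (quasi-likelihood) and DESeq2 1.42.0 were run as alternatives, and the fit was tested on simulated data. Genes and gene lists were chosen with earlier results of these data known. Named genes were, in each direction, the 12 called genes of smallest p without overlap and the 8 of largest change with a mean of at least 50, the leading members of each list, Pkm and the 6 genes of smallest p between genotypes. Others were named after their values were seen. Libraries that share a replicate number did not deviate together (r of -0.198, -0.0125, 0.0325 and 0.000218), and the numbers were not used to pair them. Promoter windows came from RefSeq on GRCm38. Results for some genes are not reported here.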

Additional observations from a re-analysis of the deposited data

Results flagged for a closer look

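The gene models Snora73a, Gm11966, Gm20594 and Gm44511 moved in opposite directions in the genotypes, with every PKM2fl/fl sham heart above and every PKM2-/- sham heart below its baseline hearts. They were among the 6 genes of smallest p between genotypes, so part of this pattern follows from how they were chosen. The difference between genotypes did not pass the limma test for any of them. For Snora73a, a small nucleolar RNA, the difference in log2 fold change (PKM2-/- minus PKM2fl/fl) was -1.31 ± 0.22 (SE, adjusted p = 0.242). Its counts were 1109 and 1188 in PKM2fl/fl baseline and 1706 to 2322 in sham, and 1183 and 1215 in PKM2-/- baseline and 742 to 1039 in sham. For Gm11966 the difference was -2.20 ± 0.29 (adjusted p = 0.109), for Gm20594 -3.68 ± 0.60 (adjusted p = 0.242) and for Gm44511 -2.70 ± 0.39 (adjusted p = 0.131). Baseline counts ran from 108 in PKM2fl/fl to 1964 in PKM2-/- for Gm20594, and from 29.2 to 117 for Gm44511. Both genes thus fell in PKM2-/- from a baseline above that of PKM2fl/fl. Gm20594 is among the rRNA-related loci, whose share of reads moved by 2.73 points in PKM2fl/fl and -7.14 points in PKM2-/-. Without the 2 mitochondrial rRNA genes it moved by 0.65 and 0.38 points. In PKM2-/- that mean rested on sham 3, at 18.3%, with the other sham hearts at 7.70% and 5.89% and baseline at 10.4% and 10.1%. Of the 15 such loci tested, 15 were higher in sham in PKM2fl/fl and 1 in PKM2-/- (median log2 fold changes 0.46 and -0.40). Over all genes tested 52.9% and 51.4% were higher. In all, 470 of the tested genes (2.33%) moved in opposite directions without overlap in either genotype, 1256 (6.22%) moved up in both and 1023 (5.07%) down in both. The share expected without any effect was not worked out, so the 2.33% is no result about genotype.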

How the results depend on the processing

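The 374 called genes became 247 with a mean of at least 50 and 1322 with no fold threshold, and ran from 196 (without PKM2-/- baseline 2) to 476 (without PKM2fl/fl sham 3) with 1 library left out. They were 462 with total reads, 359 with edgeR, 476 with DESeq2 and 324 with the rRNA-related share as a covariate. The 8 genes called in PKM2fl/fl became 1 from its 5 libraries alone, 196 with DESeq2 and 130 with total reads, and ran from 2 to 161 with 1 library left out. The 511 in PKM2-/- became 821 with total reads and ran from 236 to 550. The 0 genes whose difference between genotypes passed became 102 with DESeq2 and 20 with total reads, and 0 to 1 with 1 library left out. A replicate block gave 414 called genes, though what hearts of the same number share is not given in the sources used here. Of 245 named genes 133 passed and none reversed. Of the 133, 65 passed in every alternative and 89 in every alternative with all 10 libraries, 30 were lost with total reads, 14 with the replicate block, 52 without PKM2-/- baseline 2 and 43 without PKM2-/- baseline 1. Scaling to total reads moved the median log2 fold change of all genes from 0.01 to 0.09. With 2 baseline hearts per genotype, a gene that did not pass is not shown to be unchanged.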

Other observations

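Gene families that no list held as a whole were chosen after the values were seen and carry no set test. Some members, such as Fcgr1, Ifi205 and Serpina3n, stand in the lists above, so these counts partly repeat theirs. Reads of near-identical copies may be split between them, so single members are uncertain. In the Ifi200 family of DNA sensors 7 of 11 tested genes rose, with a median log2 fold change of 1.42, and all 4 Fc gamma receptor genes rose (median 1.29), among them Fcgr4 and Fcgr1. In the Serpina3 family of protease inhibitors 5 of 7 rose (median 1.68). Of 7 Clec4 lectin genes 5 rose, and Clec4e, a receptor for products of dead cells and mycobacteria, went from a mean of 1.14 in baseline to 41.6 in sham (4.21 on the log2 scale, adjusted p = 0.00204).

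The 9 tested genes of the Ugt1a cluster, which share their last exons and so cannot be told apart by reads there, had log2 fold changes between 0.98 and 1.14, and 6 rose. Of 45 replication-dependent histone genes 8 rose and 1 fell, and 40 were higher in sham. All 81 cytosolic ribosomal protein genes tested were higher in sham, with a median of 0.24, but only Rpl22l1 passed (0.60). Of 17 ATP synthase subunit genes 0 passed, with a median of 0.03.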
